A study of Homo sapiens with 12 samples.

Results

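U251 and U87, 2 established human glioma cell lines, were compared with each other after 24 h in artesunate, and the same comparison without the drug was used to see which differences between the lines remained, vanished or appeared. The members are the 3 libraries of artesunate-treated U251 and the 3 of artesunate-treated U87, 6 of the 12 libraries of the series, taken by their labels. U251-ART received 180 µM artesunate and U87-ART 24.08 µM, so the line and the dose cannot be told apart in any treated difference. The 3 untreated U251 and 3 untreated U87 libraries carry a medium label (10%DMEM), and no solvent control is stated. Day 9 is given for all 4 groups. The sample labels name artesunate, whereas the extraction text names artemisinin. No label says that libraries of a group came from separate cultures, so each p-value measures the spread between these libraries, which may be technical.

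Artesunate is a semisynthetic derivative of artemisinin whose endoperoxide bridge is opened by ferrous iron or heme, giving reactive products that damage proteins and lipids. Cells meet such stress with the NRF2 response, which raises antioxidant enzymes, and with the integrated stress response, in which ATF4 raises amino acid transport and synthesis. Cell lines from different tumours also differ in lineage, matrix and homeobox genes, and those differences are usually stable in culture.

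Library totals were 13631985 to 16235071 counts in the 6 treated libraries and up to 17314284 in all 12. Values in CPM (counts scaled to library size) below are scaled by TMM factors, and a line difference is the fitted log2 level in U251 minus that in U87, so that positive values mean higher in U251. Replicates correlated at r of 0.9848 or more across genes, except those of U87-ART, at 0.9718 to 0.9811. U87-ART library 2 stood apart from libraries 1 and 3: mitochondrially encoded genes took 3.42% of its counts against 1.80% and 1.95%. The libraries also differed in how their counts followed the GC content of transcripts. Across genes, which are not independent replicates, the correlation of GC content with a library's deviation from the mean of all libraries was -0.364, -0.143 and -0.33 in U87-ART 1 to 3. It was 0.206 to 0.299 in U87 controls, 0.0399 to 0.133 in U251-ART and -0.0653 to -0.0278 in U251 controls. Its part in the results was not tested, and values corrected for GC content and transcript length are given beside many results below. Unless called an interaction, a corrected value is a treated difference, and control values beside it are uncorrected.

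Treated U251 and treated U87 differed at most tested genes. Of 17150 genes tested, 6226 (36.3%) were higher in U251-ART and 6152 (35.9%) higher in U87-ART, at an adjusted p under 0.05 in edgeR's quasi-likelihood test. Untreated, 5573 genes (32.5%) were higher in U251 and 5542 (32.3%) higher in U87. Differences of at least 2-fold numbered 4213 and 3710 among the treated libraries and 3168 and 3264 among the controls. The median absolute line difference of all tested genes was 0.96 (log2) in treated and 0.75 in control libraries. The authors' deposited table of U87-ART over U251-ART covers a larger gene set, 29156 genes with a value. In it 6446 genes were higher in U251-ART and 5869 higher in U87-ART at an adjusted p under 0.05.

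Each gene was then placed by 3 tests: the treated difference, the control difference, and the change from one to the other (the interaction), which was called for 8478 genes (49.4%). A line difference was kept in 7101 genes (41.4%), called with the same sign with and without artesunate. It was lost in 1567 genes (9.14%), called in controls and not in treated libraries, with a called interaction. It appeared in 2638 genes (15.4%), the converse, and turned around in 1622 genes (9.46%), called in both with opposite signs. The 1842 genes called in 1 comparison without a matching interaction are undecided, and 2380 were called in neither. These shares of all tested genes are the background for the class counts of each gene list below.

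**Figure D1:**
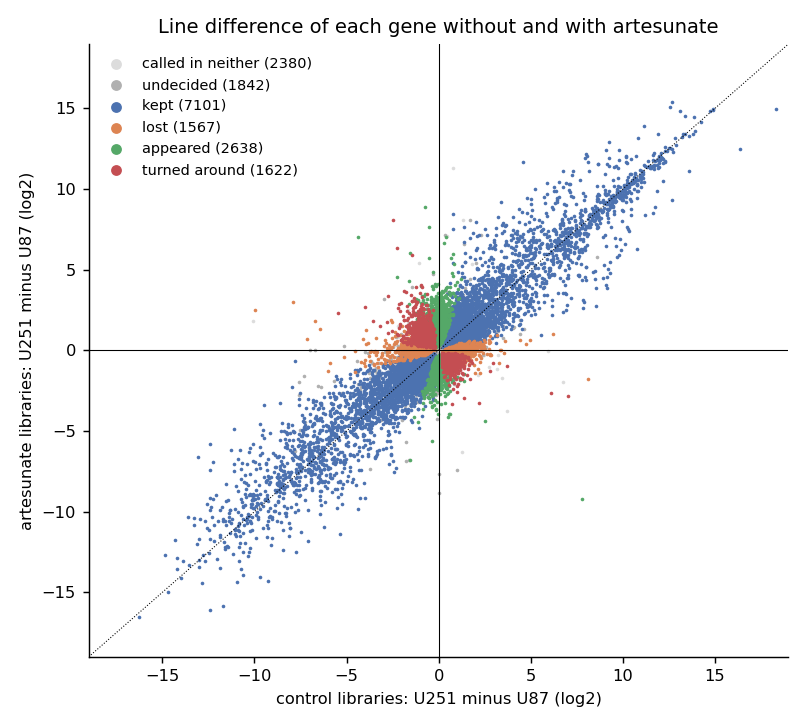
Each point is 1 of the 17150 tested genes, with its U251 minus U87 difference in control libraries on the x axis and in artesunate libraries on the y axis, both in log2 units, coloured by class. The 7101 kept genes have the same sign on both axes, the 1622 that turned around opposite signs, and the dotted line marks equal differences.

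The kept differences were spread evenly over the lines, with 3487 genes higher in U251 and 3614 higher in U87. Of these, 4551 (64.1%) had no interaction call, 1552 (21.9%) were wider under artesunate and 998 (14.1%) narrower. In the genes that did not keep their difference, the change under artesunate was more often the larger one in U87: 86.6% of the lost, 90.9% of the appeared and 96.5% of the turned genes, against 76.1% of all tested genes and 68.5% of the kept. The classes also differed in transcript composition. Genes that appeared higher in U251-ART had a median GC content of 59.1%, and those that appeared higher in U87-ART 41.4%, against 47.9% for all tested genes. For turned genes the values were 59.7% and 40.0%, for lost genes 41.1% (higher in control U251) and 57.5% (higher in control U87), and for kept genes 47.7% and 47.6%. After correction for GC content and length, 92.9% of the kept genes stayed in their class, but 18.6% of the lost, 22.2% of the appeared and 24.4% of the turned genes did.

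**Figure D2:**
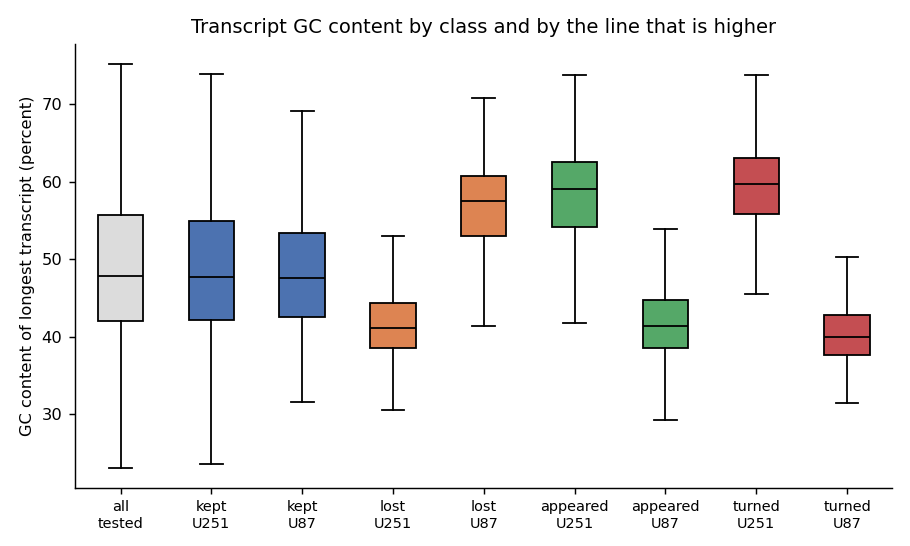
GC content of the longest transcript in percent (y axis) for all tested genes and for each class, split by the line in which the gene was higher (for lost genes, in controls). Boxes span the quartiles with the median as a line and whiskers reach to 1.5 times the box. Kept genes centre near 48%, and the other classes split by line, at 57% to 60% against 40% to 41%.

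The genes with the widest kept differences were expressed in 1 line and at or near 0 counts in the other. ADD2, which encodes the membrane skeleton protein beta-adducin, measured 348, 369 and 339 CPM in U251-ART and had no count in U87-ART. Set against the floor of 3 counts over the group, this is at least 5050-fold higher in U251-ART. EPHA3, an ephrin receptor kinase, measured 285, 286 and 281 CPM in U251-ART against no count, at least 4080-fold higher. GPC4, a heparan sulfate proteoglycan of the cell surface, measured 265, 265 and 243 CPM against no count, at least 3690-fold higher. NEFL, the neurofilament light chain, measured 1860, 1740 and 1610 CPM in U251-ART, while the 3 U87-ART libraries held 2 counts in all, a ratio of 37200 (95% interval 10300 to 307000, counting error only). All 4 were also higher in control U251. The interaction was not called for any of them, but with U87 at or near 0 counts it could hardly be tested. Within U251, NEFL (-0.58, adjusted p = 0.0274) and EPHA3 (-0.50, adjusted p = 0.0338) were lower with artesunate in the same model.

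On the U87 side, TFPI2, a serine protease inhibitor of the matrix, measured 866, 630 and 827 CPM in U87-ART and had no count in U251-ART, at least 11900-fold higher. TNFRSF10D, a decoy receptor for the death ligand TRAIL, measured 589, 550 and 574 CPM in U87-ART against 272, 278 and 277 in U87 controls, and at least 8760-fold more than in U251-ART. GREM1, a secreted antagonist of bone morphogenetic proteins, measured 494, 479 and 477 CPM in U87-ART, at least 7420-fold higher than in U251-ART, against 170, 151 and 187 CPM in its controls. TMPRSS15, the serine protease enteropeptidase, measured 293, 208 and 274 CPM in U87-ART, at least 3970-fold higher. The kept genes named so far were picked among those whose treated groups did not overlap, so that absence of overlap is no separate result.

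Markers of the labelled cell type were split between the lines, and the split was kept under artesunate. Of 20 astrocyte and glioma markers, 17 could be tested: 9 were higher in U251-ART and 7 in U87-ART, and 14 were kept. GFAP, the astrocyte intermediate filament, measured 47.9, 62.9 and 61.6 CPM in U251-ART and 1.75, 1.90 and 1.34 in U87-ART, a line difference of 5.11 ± 0.35 (SE, adjusted p = 1.11e-07). Its interaction was called only after correction (-1.81, adjusted p = 0.0275). SOX9, a transcription factor of glial progenitors, measured 208, 197 and 173 CPM against 3.86, 3.43 and 3.26, and its difference widened from 3.56 to 5.77 ± 0.11. NES, the intermediate filament nestin of neural stem cells, measured 138, 158 and 126 CPM in U251-ART. In U87 it measured 63.9, 75.8 and 72.7 CPM without and 10.6, 14.2 and 11 CPM with artesunate, so that its line difference widened from 1.02 to 3.56 ± 0.14. The interaction of NES was 2.54, and 1.34 after correction. The treated groups of these 3 genes did not overlap. The share of all tested genes without overlap was not counted. Since 12378 of the 17150 had a called treated difference, absence of overlap, here and below, does not set a gene apart.

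Other glial markers were U87 genes. ALDOC, the brain form of aldolase, measured 1.00, 0.820 and 0.864 CPM in U251-ART and 39.8, 39.8 and 34.0 in U87-ART, a difference of -5.39 ± 0.22 against -6.59 in controls; this narrowing was not called after correction (interaction 0.37, adjusted p = 0.464). OLIG2, a factor of oligodendrocyte precursors, had no count in U251-ART and 6.55, 8.61 and 6.98 CPM in U87-ART, at least 113-fold higher. VIM, the filament vimentin, measured 3590 to 4230 CPM in U251-ART and 4910 to 6670 in U87-ART, a difference of -0.60 ± 0.14 (adjusted p = 0.00243). AQP4, the astrocyte water channel, had no count in any library, S100B had 18 counts in U251-ART and 0 in U87-ART, and ALDH1L1 20 and 0. SOX2, a stem cell factor named here after its values were seen, had no count in U87 and means of 249 and 246 CPM in U251 controls and U251-ART. In RNA from whole cultures, fewer cells of a type and less RNA per cell cannot be told apart.

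Markers of other cell types were compared in the same way. Of 14 fibroblast and mesenchymal markers, 13 were tested, 3 higher in U251-ART and 9 in U87-ART, and 11 were kept, with a median line difference of -1.91 in treated and -2.25 in control libraries. FN1, the matrix protein fibronectin, measured 705, 733 and 671 CPM in U251-ART and 9800, 8200 and 8490 in U87-ART (-3.65 ± 0.08). CDH2, N-cadherin, went the other way at 241, 235 and 227 against 43.3, 34.4 and 46.4 CPM (2.50 ± 0.10). PDGFRB, a platelet-derived growth factor receptor, was 30.9 times as high in U87-ART (95% interval 21.5 to 46.1). The summed level of this list was 989 to 1070 CPM in U251-ART and 9100 to 10900 in U87-ART. LUM, DCN and POSTN had no count in U251-ART, and THY1 had none in U87-ART.

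Neuron markers were the reverse, with 9 of 15 tested, 6 higher in U251-ART and 2 in U87-ART, and summed levels of 2010 to 2280 against 88.4 to 108 CPM. NEFL made up most of the U251 sum, SNAP25, a synaptic membrane fusion protein, was higher in U87-ART (-3.63 ± 0.22), and DCX and STMN2 were at 0 in both treated lines. Of 11 microglia and leukocyte markers 3 were tested and all 3 were higher in U87-ART, among them CSF1R at 6.41, 7 and 8.51 CPM against 0.215, 0.694 and 0.247. The list summed to 38.3 to 64.8 CPM in U87-ART and 4.07 to 6.66 in U251-ART, while AIF1, CD3E and TYROBP had no count in either. Of 10 endothelial markers 7 were tested, 3 higher in U251-ART and 4 in U87-ART (summed levels 61.1 to 68.5 and 23.1 to 32.9 CPM). Of 10 epithelial markers 5 were tested, 4 higher in U251-ART, with KRT18 75.8 times as high (95% interval 42.2 to 152), and 1 in U87-ART (29.2 to 44.2 and 4.95 to 7.44 CPM). Of 10 oligodendrocyte markers 3 were tested, 1 in each direction, CNP and UGT8, at 144 to 165 and 74.3 to 106 CPM. MAG, MOG, OLIG1 and SOX10 were at 0 in both treated lines.

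**Figure D3:**
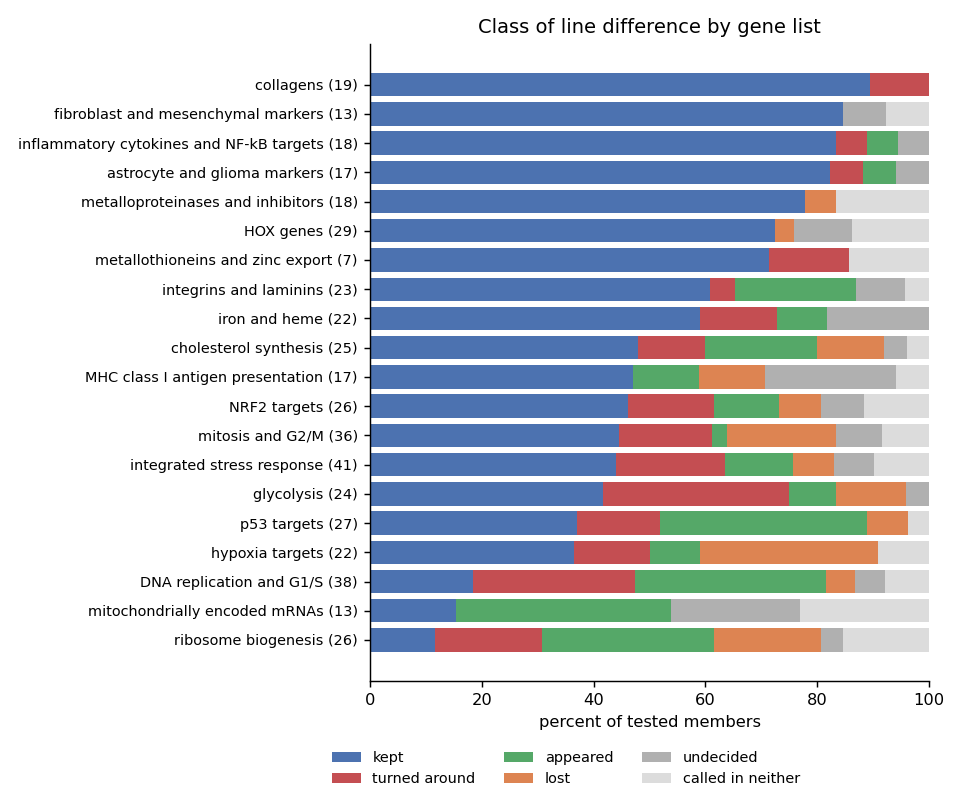
Share of the tested members of each of 20 gene lists (percent, x axis; number tested in brackets) in each class of line difference. Collagens, mesenchymal markers and inflammatory genes were mostly kept, whereas ribosome biogenesis, mitochondrially encoded and DNA replication genes had the smallest kept shares of these lists.

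Matrix genes kept their line pattern. Of 19 collagens, 11 were higher in U251-ART and 8 in U87-ART, 17 were kept and 2 turned around, COL5A1 and COL13A1, neither of which was called as turned after correction. COL6A3, a chain of beaded-filament collagen, measured 4.73, 4.35 and 4.69 CPM in U251-ART and 3590, 3760 and 3520 in U87-ART, a difference of -9.62 ± 0.12 against -9.56 in controls. Its interaction was called only after correction (-0.515, adjusted p = 0.00444). COL4A2, a basement membrane chain, was opposite at 400, 418 and 324 against 4.66, 5.62 and 4.86 CPM, and its difference widened from 4.13 to 6.24 ± 0.14. This interaction of 2.10 was 0.56 after correction (adjusted p = 0.0165). COL16A1 measured 147, 171 and 173 CPM in U87 controls and 23.7, 58.7 and 26.9 CPM in U87-ART, and its difference narrowed from -7.36 to -5.06 ± 0.41, a change not called after correction (interaction 0.75, adjusted p = 0.174). The median of the list was 0.88 in treated and -0.69 in control libraries. After the GC and length correction the treated median was 0.14, and the control median was not corrected. The median GC content was 55.4%.

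Integrins and laminins, the receptors and ligands that anchor cells to the basement membrane, had 13 of 23 members higher in U251-ART and 9 in U87-ART. Of these 23, 14 were kept and 5 appeared. ITGB4, the integrin chain of hemidesmosomes, measured 886, 860 and 700 CPM in U251-ART against 9 counts in U87-ART, 3880 times as high (95% interval 2050 to 8490). ITGB3, a chain of the vitronectin receptor, was higher in U87-ART at 307, 326 and 315 against 22.1, 19.7 and 22.0 CPM (-3.89 ± 0.09). LAMA5, a laminin chain, measured 748, 717 and 643 CPM in U251-ART and 3.79, 10.7 and 5.50 in U87-ART (6.72 ± 0.31 against 4.21 in controls). Its interaction of 2.51 was 0.505 after correction (adjusted p = 0.01). The list median of 0.53 was 0.21 after correction.

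Matrix proteases and their inhibitors, counted as 1 list, were more often higher in U87-ART. Of 18 metalloproteinases and inhibitors tested, 3 were higher in U251-ART and 11 in U87-ART, 14 were kept, and the median difference was -2.08. The 11 include the inhibitors TIMP1, TIMP3 and TIMP4. MMP2, a gelatinase, measured 84.3, 89.6 and 71.8 CPM in U251-ART and 1260, 1190 and 1210 in U87-ART (-3.90 ± 0.09). ADAMTS5, an aggrecanase, had no count in U251-ART and 141, 141 and 136 CPM in U87-ART, at least 2130-fold higher, against 41.3, 43.6 and 40.0 CPM in U87 controls. ADAMTS9, of the same family, was higher in U251-ART at 81.0, 79.0 and 80.5 against 23.7, 16.1 and 17.6 CPM (2.07 ± 0.15).

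The homeobox genes of the HOX clusters, which record position along the body axis, had 18 of 29 members higher in U251-ART and 5 in U87-ART. Of the 29, 21 were kept, 1 was lost (HOXB5, undecided after correction) and none appeared, and the median was 1.70 against 1.08 in controls. HOXD10 measured 57.8, 54.7 and 55 CPM in U251-ART and 7.14, 8.17 and 7.10 in U87-ART (2.90 ± 0.10). HOXB2 was higher in U87-ART, 38.0 times (95% interval 24.1 to 63.5). Overlapping antisense transcripts in these clusters cannot be separated, since the strand setting of the counting is not stated.

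Genes that display peptides on MHC class I were split, 4 of 17 higher in U251-ART and 8 in U87-ART, with 8 kept, 2 lost and 2 that appeared. Of all tested genes 41.4% were kept, 9.14% were lost and 15.4% appeared. HLA-B measured 19.2, 20.7 and 20.5 CPM in U251-ART and 328, 351 and 321 in U87-ART (-4.05 ± 0.09). Class I genes are near-identical to each other and reads can be split among them, so this value is uncertain. TAPBP, the tapasin of the peptide loading complex, was higher in U251-ART at 185, 185 and 164 against 50.6, 66.1 and 53 CPM, a difference of 1.66 ± 0.13 that widened from 0.52; the widening was not called after correction (interaction 0.15, adjusted p = 0.395). The list median of -0.29 was -0.84 after correction, with 3 and 11 members called.

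Inflammatory genes were higher in treated U87, as in untreated U87. Of 18 cytokines and NF-kB targets tested, 3 were higher in U251-ART and 14 in U87-ART, and the median was -3.37 against -2.91 in controls. Of the 18, 15 were kept, 6 of them wider and 3 narrower, against 21.9% and 14.1% of all kept genes. CXCL8, the neutrophil attractant interleukin 8, had no called line difference in controls, at 135, 142 and 141 CPM in U251 and 159, 136 and 119 in U87. With artesunate it measured 146, 180 and 166 CPM in U251-ART and 1050, 765 and 937 CPM in U87-ART. The groups did not overlap, and the treated difference was -2.48 ± 0.14 (adjusted p = 1.68e-08). After correction CXCL8 was a kept difference (-1.81, interaction -1.32). PTGS2, the prostaglandin synthase COX-2, measured 9.17, 11.3 and 10.5 CPM in U251-ART and 200, 197 and 195 in U87-ART, and its difference widened from -3.04 to -4.26 ± 0.11, a change not called after correction (interaction -0.29, adjusted p = 0.107). BIRC3, an inhibitor of apoptosis, was a U251 gene at 70.2, 66.7 and 80.1 against 8.23, 5.54 and 6.59 CPM (3.41 ± 0.14).

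**Figure D4:**
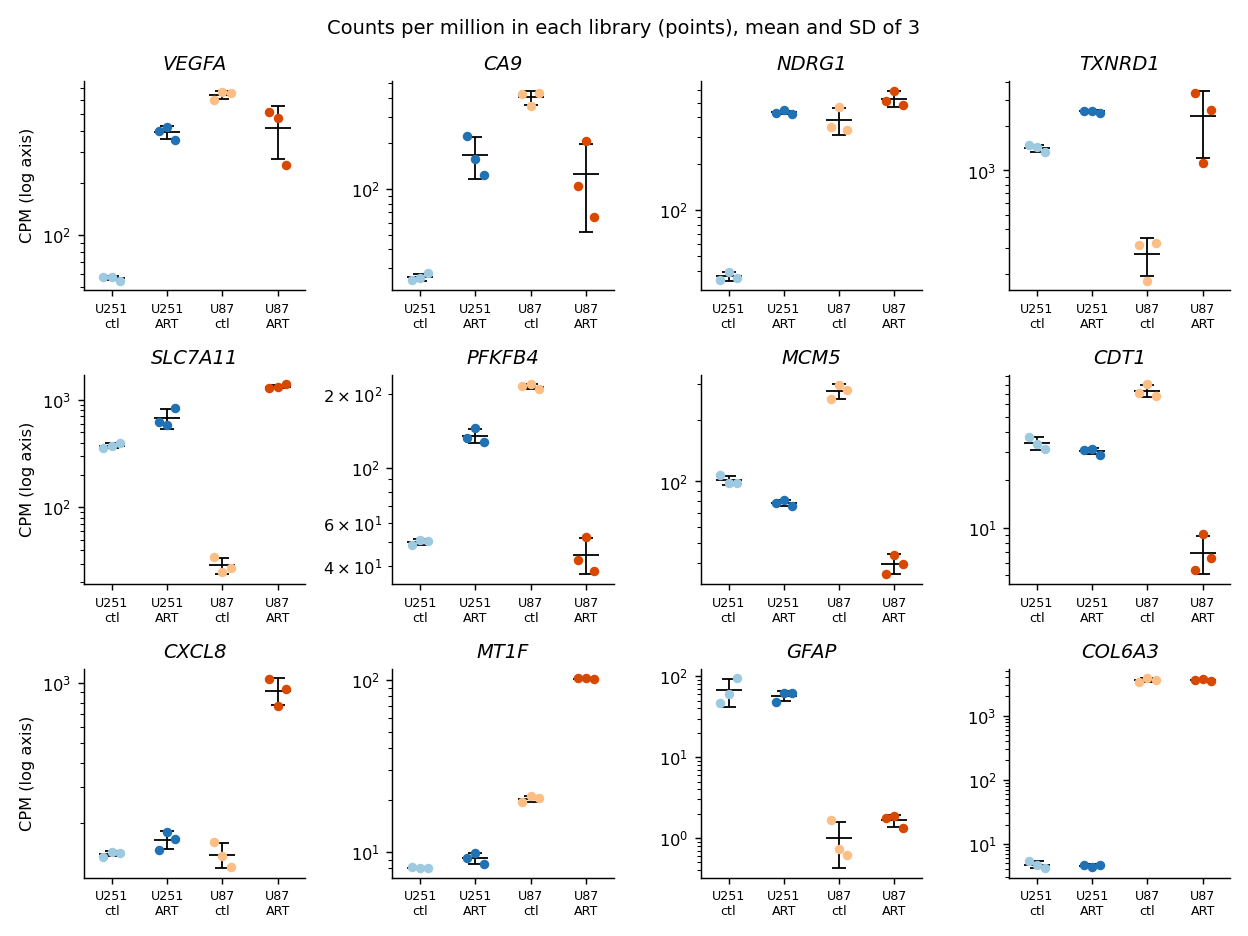
CPM in each library (points, log axis) for 12 genes, with the mean as a bar and the SD of 3 libraries. VEGFA, CA9 and NDRG1 were low in U251 controls and close between the treated lines, SLC7A11, PFKFB4, MCM5 and CDT1 changed order between the lines, CXCL8 separated under artesunate, and GFAP and COL6A3 kept their difference.

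Hypoxia genes lost much of their line difference. These are targets of the hypoxia-inducible factors, which bind a short element in promoters and enhancers and raise vessel growth, acid export and glycolysis. Of 22 tested, 15 were higher in U87 and 3 in U251 without drug, and 6 and 7 with it. Of the 22, 8 were kept, 7 lost, 2 appeared and 3 turned around. The 7 lost genes, ADM, BNIP3, CA9, INSIG2, NDRG1, PPFIA4 and VEGFA, were all higher in control U87. After correction NDRG1, PPFIA4 and ADM were kept and INSIG2 turned around. The median line difference was -1.04 in controls and 0.08 in treated libraries; corrected, the treated median was -0.11 with 9 and 8 members called.

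VEGFA, the vascular endothelial growth factor, measured 57.2, 57.7 and 54.7 CPM in U251 controls and 601, 672 and 658 in U87 controls. With artesunate it measured 400, 419 and 354 CPM in U251-ART and 513, 476 and 254 in U87-ART. The control groups stood apart and the treated groups overlapped, so that the difference went from -3.51 to -0.08 ± 0.20 (95% interval -0.51 to 0.35), with an interaction of 3.43 (adjusted p = 5.84e-06). CA9, a carbonic anhydrase of the cell surface, measured 25.0, 25.9 and 27.7 against 423, 350 and 430 CPM in controls. In treated libraries it measured 223, 157 and 123 against 104, 207 and 65.3 CPM (0.42 ± 0.33, 95% interval -0.31 to 1.15). NDRG1, a stress-induced gene of hypoxic cells, measured 35.1, 39.4 and 36.1 against 349, 469 and 332 CPM in controls and 428, 445 and 421 against 511, 599 and 480 CPM in treated libraries. Its treated groups did not overlap, and its difference of -0.30 ± 0.13 was just short of a call (adjusted p = 0.0503) and was called after the GC correction (-0.41, adjusted p = 0.00568).

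PPFIA4, a liprin linked to synapses and listed as a hypoxia target, also lost its line difference, with U87-ART far below U87 controls. It measured 2.18, 1.40 and 2.38 CPM in U251 controls and 46.1, 46.2 and 46.5 in U87 controls, and 5.09, 4.23 and 5.43 in U251-ART against 5.53, 5.25 and 4.35 in U87-ART. The treated groups overlapped (-0.04 ± 0.18), and the control difference was -4.54; after the GC and length correction a treated difference of -0.90 was called. Other hypoxia genes kept their line. EGLN3, an oxygen-sensing prolyl hydroxylase, measured 114, 108 and 104 CPM in U251-ART and 1.09, 1.97 and 0.832 in U87-ART, and its difference widened from 3.02 to 6.40 ± 0.32. CA12, another carbonic anhydrase, was a U87 gene at 4.59, 4.04 and 4.19 against 268, 249 and 255 CPM (-5.91 ± 0.17).

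Promoter sequences of PPFIA4 and BNIP3, a mitophagy receptor that measured 398, 398 and 383 CPM in U251-ART and 372, 319 and 331 in U87-ART, are shown because both lost their line difference. BNIP3 was chosen for display after its values were seen. They are RefSeq sequences of GRCh38.p14 within 250 bases before the gene start, 5′ to 3′ on the gene's strand, at chr1:203026241-203026490 (plus strand) and chr10:131982014-131982173 (minus strand). Capitals mark the core of the hypoxia response element, ACGTG or GCGTG on either strand, with overlapping matches run together.

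PPFIA4: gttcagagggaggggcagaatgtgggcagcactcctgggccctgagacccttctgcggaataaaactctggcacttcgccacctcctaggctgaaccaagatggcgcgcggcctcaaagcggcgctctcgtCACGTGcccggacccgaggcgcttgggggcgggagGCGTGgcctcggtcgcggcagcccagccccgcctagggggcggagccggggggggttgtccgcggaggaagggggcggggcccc

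BNIP3: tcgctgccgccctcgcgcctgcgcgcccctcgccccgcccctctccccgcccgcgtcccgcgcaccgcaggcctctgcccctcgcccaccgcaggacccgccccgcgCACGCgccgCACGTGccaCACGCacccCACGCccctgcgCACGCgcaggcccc

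The PPFIA4 stretch held 3 matches and the BNIP3 stretch 6. Of the hypoxia members tested, 18 had a RefSeq promoter, and 15 of these (83.3%) held the core, against 43.1% of 27305 promoters. A match is a description of the letters and says nothing of binding.

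Glycolytic genes, many of which hypoxia-inducible factors also raise, moved towards U251 at some members and kept their side at others. Of 24 tested, 19 were higher in U87 and 3 in U251 without drug, and 7 and 13 with it; 10 were kept, 3 lost, 2 appeared and 8 turned around, all 8 towards U251. The median went from -0.71 to 0.29. The corrected treated median was -0.03, with 10 members higher in U251-ART and 9 in U87-ART, and the control median was not corrected. PFKFB4, which makes the activator of phosphofructokinase, measured 48.5, 50.8 and 50.7 CPM in U251 controls and 215, 219 and 210 in U87 controls. In treated libraries it measured 132, 145 and 128 against 42.5, 52.6 and 38.1 CPM. It was picked among turned genes for which neither pair of groups overlapped, and its difference went from -2.10 to 1.61 ± 0.11. After correction the treated difference was 1.09 and the interaction 2.83, against 3.71 uncorrected.

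SLC16A3, the lactate exporter MCT4, measured 281, 320 and 244 CPM in U251-ART and 23.1, 77.3 and 29.6 in U87-ART. Its difference was 2.70 ± 0.35 against -1.26 in controls. After correction the treated difference was 1.59 and the interaction 2.46, against 3.96 uncorrected. GPI, which interconverts glucose and fructose phosphates, was kept and wider at 1230, 1210 and 1050 against 207, 219 and 155 CPM (2.58 ± 0.12). LDHA, the main lactate dehydrogenase chain, kept a large U87 excess at 18.1, 19.6 and 16.8 against 1770, 1460 and 1390 CPM, with -6.41 ± 0.13 in treated and -6.25 in control libraries.

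The integrated stress response was higher in treated U87 at most of its genes. Of 41 tested, 7 were higher in U251-ART and 25 in U87-ART, against 12 and 19 in controls, and the median went from -0.29 to -0.72. Of the 41, 18 were kept, 3 lost, 5 appeared and 8 turned around, against 41.4%, 9.14%, 15.4% and 9.46% of all tested genes. Without U87-ART library 2, 11 members were higher in U251-ART, and 4 after the GC and length correction. STC2, a secreted glycoprotein raised by ATF4, measured 83.6, 86.3 and 79.1 CPM in U251-ART and 723, 696 and 672 in U87-ART, and its difference narrowed from -4.50 to -3.07 ± 0.09. ASNS, MTHFD2 and GARS, which serve asparagine synthesis, folate metabolism and glycine charging and were picked after their values were seen, appeared higher in U87-ART (-1.85, -1.15 and -1.08). PPP1R15A, the phosphatase subunit that ends the response, turned towards U251 at 101, 110 and 94.3 against 48.1, 62.1 and 52.2 CPM (0.91 ± 0.11), but this turn was not called after correction (treated difference 0.26, interaction 0.08, adjusted p = 0.633).

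SLC7A11, the cystine importer that feeds glutathione synthesis, had the largest interaction in this list and among the NRF2 targets. It measured 356, 368 and 398 CPM in U251 controls and 34.6, 24.8 and 27.2 in U87 controls. With artesunate it measured 618, 580 and 841 CPM in U251-ART and 1290, 1300 and 1390 in U87-ART. Neither pair of groups overlapped, and the line difference went from 3.69 to -0.96 ± 0.14 (adjusted p = 8.04e-05), an interaction of -4.66 (adjusted p = 2.94e-07). After the GC and length correction the treated difference was -0.57.

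NRF2 targets lost their lean towards U251. Of 26 tested, 14 were higher in U251 and 5 in U87 without drug, and 9 and 11 with it, and the median went from 0.42 to -0.32. Without U87-ART library 3 the treated median was -0.15. Of the 26, 12 were kept, 2 lost, 3 appeared and 4 turned around, against 41.4%, 9.14%, 15.4% and 9.46% of all tested genes. TXNRD1, thioredoxin reductase, measured 1480, 1440 and 1330 CPM in U251 controls and 314, 179 and 320 in U87 controls, and 2550, 2550 and 2460 in U251-ART against 3360, 1120 and 2570 in U87-ART. It was picked among lost genes whose control groups did not overlap and whose treated 95% interval lay within -1 and 1. Its treated groups overlapped, and the difference went from 2.39 to 0.10 ± 0.31 (95% interval -0.59 to 0.79). AKR1C1, an aldo-keto reductase with close relatives among which reads may be split, measured 46.7, 49.3 and 47.7 against 586, 492 and 546 CPM and widened from -2.28 to -3.50 ± 0.09. Its interaction of -1.22 was -0.65 after correction. ABCC3, an exporter of conjugates, was a U251 gene at 449, 430 and 429 against 22.7, 30.9 and 24.0 CPM (4.07 ± 0.12).

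The TXNRD1 promoter (RefSeq, GRCh38.p14, chr12:104215529-104215778, plus strand) is shown because TXNRD1 lost its line difference; capitals mark its match to the antioxidant response element core, TGACNNNGC on either strand.

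TXNRD1: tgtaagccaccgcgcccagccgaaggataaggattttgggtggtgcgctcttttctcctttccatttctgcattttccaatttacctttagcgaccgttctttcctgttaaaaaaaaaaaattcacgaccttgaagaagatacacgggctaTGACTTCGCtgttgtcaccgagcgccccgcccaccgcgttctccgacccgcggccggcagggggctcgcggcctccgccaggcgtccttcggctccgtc

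That core was in 3 of 18 NRF2 target promoters (16.7%), against 11% of all promoters. The core of the ATF4 element (TGATGNAA) was in 6 of 34 promoters of integrated stress response members, against 3.19% of all.

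Iron and heme genes, which bear on how artesunate is opened, had 7 of 22 members higher in U251-ART and 13 in U87-ART, against 7 and 11 in controls, and 13 were kept. HMOX1, the heme-degrading oxygenase, measured 36.3, 33.7 and 28.3 against 140, 147 and 157 CPM in controls and 200, 220 and 213 against 367, 569 and 432 CPM in treated libraries. The groups did not overlap in either case, and the difference narrowed from -2.18 to -1.11 ± 0.14. After correction the treated difference was -1.60 and the narrowing was not called (interaction 0.11, adjusted p = 0.633). TFRC, the transferrin receptor that brings iron in, was kept for U251 at 2120, 2170 and 2150 against 948, 791 and 908 CPM (1.28 ± 0.08). ACO1, an iron-sensing RNA-binding protein, was a U87 gene at 126, 128 and 118 against 268, 256 and 262 CPM (-1.07 ± 0.06). CYBRD1, a ferric reductase, turned from 0.81 to -0.88 ± 0.10, at 64.1, 65.4 and 67.4 against 135, 102 and 127 CPM.

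The ferritin heavy chain FTH1 measured 3560, 3810 and 4280 CPM in U251-ART and 5060, 5130 and 5100 in U87-ART, a treated difference of -0.39 ± 0.10 (adjusted p = 0.00304) that was not called once corrected (-0.20, adjusted p = 0.125). GPX4, the peroxidase that removes lipid peroxides, measured 148, 146 and 121 CPM in U251-ART and 81.1, 108 and 99.4 in U87-ART. Its treated difference of 0.52 ± 0.15 (adjusted p = 0.00807) had the opposite sign after the correction (-0.48, adjusted p = 0.00503), so no direction is given for it. FTH1 and GPX4 had no called interaction, but that of GPX4 was called after correction (-1.05, adjusted p = 0.00105).

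Metallothioneins, small proteins that bind zinc and other metals and are raised by the metal-sensing factor MTF1, were wider apart under artesunate. Of 7 tested members of this list, which includes the zinc exporter SLC30A1, 6 were higher in U87-ART and none in U251-ART, against 5 and 1 in controls. Of these, 5 were kept (4 of them wider) and SLC30A1 turned around. The median went from -0.92 to -2.25. MT1F measured 8.13, 8.02 and 8.07 CPM in U251 controls and 9.24, 9.77 and 8.51 in U251-ART, and 19.5, 21.2 and 20.4 in U87 controls and 102, 102 and 101 in U87-ART. Its difference went from -1.33 to -3.47 ± 0.09 (adjusted p = 4.48e-11), with no overlap. MT1X, shown after its values were seen, measured 65.3, 78.8 and 86.7 CPM in U251-ART and 709, 653 and 665 in U87-ART (-3.13 ± 0.16, against -1.09 in controls). SLC30A1, likewise, measured 108, 95.5 and 122 against 292, 263 and 279 CPM (-1.36 ± 0.10, against 0.58 in controls; -0.98 after correction, when the control difference was not called). Metallothionein genes are near-identical to each other, so their separate values are uncertain.

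Their RefSeq promoters (GRCh38.p14) are shown because these genes moved together: MT1X at chr16:56682220-56682423 (plus strand) and SLC30A1 at chr1:211579162-211579411 (minus strand). Capitals mark the metal response element core, TGCNCNC on either strand.

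MT1X: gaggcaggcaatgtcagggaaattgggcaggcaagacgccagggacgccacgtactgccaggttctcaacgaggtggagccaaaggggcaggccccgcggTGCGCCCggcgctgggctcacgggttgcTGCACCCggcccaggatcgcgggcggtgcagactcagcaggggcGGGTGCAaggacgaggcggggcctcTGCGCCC

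SLC30A1: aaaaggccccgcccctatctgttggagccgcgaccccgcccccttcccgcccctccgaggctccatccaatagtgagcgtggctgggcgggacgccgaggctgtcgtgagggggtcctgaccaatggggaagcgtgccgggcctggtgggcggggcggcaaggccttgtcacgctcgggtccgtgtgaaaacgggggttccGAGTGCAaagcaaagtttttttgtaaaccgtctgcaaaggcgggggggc

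The MT1X stretch held 4 matches and the SLC30A1 stretch 1. Of the 7 tested members 3 had a RefSeq promoter and all 3 held the core, as did 48.4% of all promoters.

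**Figure D5:**
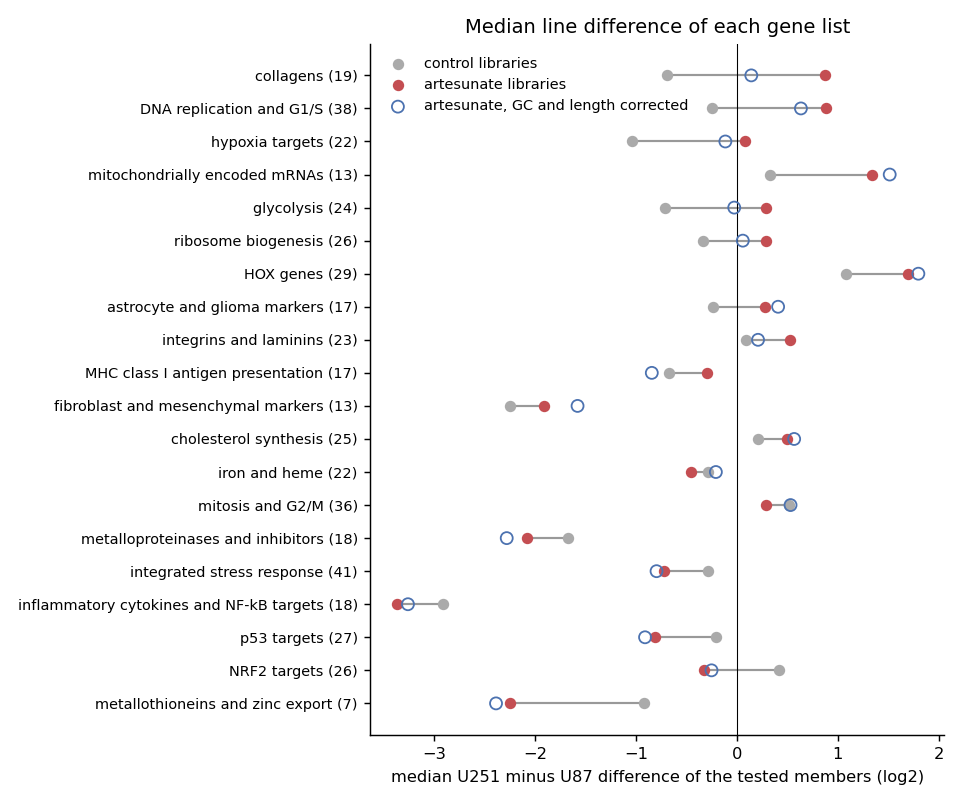
Median U251 minus U87 difference (log2, x axis) over the tested members of 20 gene lists in control libraries (grey), artesunate libraries (red) and artesunate libraries after GC and length correction (open blue circles). Hypoxia, glycolysis and DNA replication genes moved towards U251 and metallothioneins and NRF2 targets towards U87. The correction moved the treated medians of collagens and glycolysis back towards 0. Control medians are uncorrected.

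Replication genes moved towards U251. Of 38 genes of DNA replication and the G1/S transition, 29 were higher in U251-ART and 4 in U87-ART, against 3 and 17 in controls. Of the 38, 7 were kept, 2 lost, 13 appeared and 11 turned around, and every gene of the last 2 classes ended higher in U251-ART. The median went from -0.24 to 0.89. The corrected treated median was 0.64, where 31 and 1 members were called, and the control median was not corrected. MCM5, a subunit of the replicative helicase, measured 107, 98.3 and 98.4 CPM in U251 controls and 252, 296 and 279 in U87 controls, and 78.8, 81.5 and 76.2 in U251-ART against 35.2, 44 and 39.7 in U87-ART. No groups of either pair overlapped, and the difference went from -1.44 to 0.99 ± 0.10 (adjusted p = 2.02e-06). After correction the treated difference was 0.39 and the interaction 1.53, against 2.44 uncorrected.

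CDT1, which loads the helicase at origins, measured 31.0, 31.1 and 28.9 CPM in U251-ART and 5.39, 9.05 and 6.40 in U87-ART. Its difference turned from -1.09 to 2.13 ± 0.17. After correction the treated difference was 0.75 and the interaction 1.33, against 3.22 uncorrected. MCM7, another helicase subunit, appeared higher in U251-ART at 201, 216 and 162 against 46.5, 54.0 and 50.6 CPM (1.94 ± 0.11). After correction it was a kept difference (1.35, interaction 1.01). MCM6 stayed a U87 gene at 94.8, 97.9 and 91.6 against 163, 137 and 161 CPM, narrower at -0.70 ± 0.09 than the -1.15 of the controls. PCNA, the sliding clamp, kept a small U251 excess at 114, 107 and 111 against 93.9, 78.1 and 97.9 CPM (0.30 ± 0.09, adjusted p = 0.00744). The MCM6 promoter (RefSeq, GRCh38.p14, chr2:135876444-135876693, minus strand) is shown because MCM6 stayed a U87 gene while MCM5 turned around. Capitals mark the E2F element core, TTTNGCGC on either strand, with 4 matches that overlap in pairs.

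MCM6: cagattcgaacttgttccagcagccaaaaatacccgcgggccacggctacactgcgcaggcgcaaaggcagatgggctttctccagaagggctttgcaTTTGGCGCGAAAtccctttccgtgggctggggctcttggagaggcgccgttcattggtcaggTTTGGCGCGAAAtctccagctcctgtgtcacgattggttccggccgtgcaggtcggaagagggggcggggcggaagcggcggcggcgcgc

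The core was in 9 of 33 promoters of the list (27.3%), against 1.54% of all promoters.

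Mitotic genes changed less uniformly. Of 36 genes of mitosis and G2/M, 27 were higher in U251 and 4 in U87 without drug, and 19 and 5 with it; 16 were kept, 7 lost, 1 appeared and 6 turned around. The median was 0.52 in controls and 0.29 in treated libraries. The corrected treated median was 0.53, where 25 and 2 members were called, and the control median was not corrected. Without U87-ART library 2, 8 members were higher in U87-ART. TTK, a spindle checkpoint kinase, measured 48.1, 46.2 and 50.5 against 23.2, 22.9 and 24.3 CPM and narrowed from 1.89 to 1.04 ± 0.08, a change not called after correction (interaction -0.15, adjusted p = 0.224). CENPA, the centromeric histone, appeared higher in U251-ART at 20.8, 20.7 and 15.8 against 7.06, 8.46 and 5.76 CPM (1.43 ± 0.16). HMMR, a spindle-associated protein, turned to U87 at 50.6, 48.4 and 54.0 against 105, 85.4 and 87.7 CPM (-0.86 ± 0.09), but this turn was not called after correction (treated difference -0.33, interaction -0.18, adjusted p = 0.24).

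Targets of p53, the transcription factor that halts the cycle after damage, were higher in U87-ART at most genes. Of 27 tested, 5 were higher in U251-ART and 19 in U87-ART, against 6 and 10 in controls, and the median went from -0.20 to -0.81. Of the 27, 10 were kept, 2 lost, 10 appeared and 4 turned around. Of those that appeared 6 were higher in U87-ART and 4 in U251-ART, and the 4 turned genes were higher in U87-ART. After correction 3 and 18 members were called. TP53INP1, a stress-induced regulator of autophagy and cell death, measured 14.9 to 18.2 CPM in both control lines, 18.1, 17.3 and 19 in U251-ART and 88.7, 86.5 and 87 in U87-ART (-2.27 ± 0.10). After correction it was a kept difference (-1.92, interaction -1.50). CDKN1A, the cell-cycle inhibitor p21, measured 162, 180 and 144 against 203, 390 and 224 CPM (-0.75 ± 0.20; -0.40 without U87-ART library 2 and -1.27 after correction). Its control difference was -0.66, and the interaction was not called, but it was after correction (-1.07, adjusted p = 0.000914). BAX, a pore-forming killer protein, appeared on the U251 side at 61.0, 61.6 and 55.5 against 15.7, 23.9 and 20.4 CPM (1.57 ± 0.14). After correction it was a kept difference (1.00), with an interaction of 0.40 against 1.47 uncorrected. BBC3, a related trigger, measured 5.16, 5.49 and 2.84 against 0.583, 2.77 and 0.448 CPM. Its difference of 1.84 ± 0.52 was 3.11 without U87-ART library 2 and was not called after correction (0.22, adjusted p = 0.581).

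Mitochondrially encoded messages were higher in U251-ART for 10 of 13 genes and in U87-ART for none, against 2 and 0 in controls, with 2 kept and 5 that appeared. The median went from 0.33 to 1.34. MT-CO3, a subunit of cytochrome oxidase, measured 3860, 3760 and 3840 CPM in U251-ART and 1150, 2070 and 1220 in U87-ART (1.37 ± 0.18), and MT-CO1 11800, 11500 and 11500 against 6830, 8410 and 6920 (0.65 ± 0.08). The groups did not overlap, and U87-ART library 2 lay closest to U251-ART in both. Without that library all 13 genes were higher in U251-ART.

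Ribosome biogenesis kept few line differences. Of 26 genes, 12 were higher in U251-ART and 4 in U87-ART, against 2 and 12 in controls, with 3 kept, 5 lost, 8 appeared and 5 turned around. The median went from -0.34 to 0.29. The corrected treated median was 0.06, where 11 and 7 members were called, and the control median was not corrected. NOP56, a core protein of the RNA-methylating particle, measured 65.1, 60.6 and 58.4 against 27.3, 24.6 and 27.7 CPM and appeared at 1.21 ± 0.08, with no called difference in controls. After correction it was a kept difference (1.24, interaction 1.07). WDR12, a factor of the large subunit, was a U87 gene at 41.1, 43.5 and 39.3 against 97.4, 81.8 and 98.0 CPM (-1.16 ± 0.10).

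Cholesterol synthesis leaned to U251: 17 of 25 genes were higher in U251-ART and 4 in U87-ART, against 12 and 6 in controls, 12 were kept, and the median was 0.50 against 0.21. Without U87 control library 1, 7 members were higher in U87-ART. ACAT2, the first enzyme of the path, was kept at 146, 148 and 130 against 26.1, 22.0 and 26.0 CPM (2.52 ± 0.09). INSIG1, which holds the sterol-sensing factor SREBP back, was a U87 gene at 120, 123 and 117 against 995, 901 and 927 CPM, and widened from -0.54 to -2.97 ± 0.18. MVD, of the mevalonate steps, turned to U251 at 33.7, 36.4 and 30 against 5.53, 15.7 and 7.68 CPM (1.80 ± 0.28). After correction it was a difference that appeared (0.69, interaction 0.82).

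Outside these lists, the widest differences that appeared on the U251 side were AC004922.1, AMH, RASSF7 and CHTF18. AC004922.1 overlaps PDAP1, ARPC1A and ARPC1B, so its reads cannot be told apart from theirs. The same uncertainty holds for other genes named here that overlap a protein-coding gene, among them CHTF18 (RPUSD1 and GNG13), RASSF7 (LMNTD2), AJM1 (PHPT1), CLDND1 (CPOX), RHOQ (PIGF and ATP6V1E2) and CARMIL2 (ACD). AMH, the anti-Müllerian hormone, measured 14, 13.8 and 14 CPM in U251-ART and 0.218, 1.60 and 0.576 in U87-ART (4.12 ± 0.39; 2.12 after correction). CHTF18, which loads the sliding clamp, measured 21.7, 25.4 and 20.8 against 0.510, 2.63 and 1.41 CPM (3.90 ± 0.34; 2.49 after correction), and RASSF7 29, 15.1 and 11.8 against 0.510, 2.41 and 0.768 CPM (3.93 ± 0.54). After correction the interaction of RASSF7 was not called (1.11, adjusted p = 0.157), and AMH and CHTF18 were kept differences. The GC content of these 3 transcripts was 73.1%, 65.1% and 68.7%.

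On the U87 side, CLEC2D, a ligand of a natural killer cell receptor, appeared at 2.08, 2.84 and 3.52 against 23.2, 24.6 and 24.3 CPM (-3.08 ± 0.22). CLDND1, a claudin-like membrane protein, measured 30.3, 26.8 and 23.6 against 227, 70.7 and 238 CPM (-2.73 ± 0.42). XIAP, an inhibitor of caspases, measured 17.5, 18.3 and 27.3 against 50.5, 179 and 166 CPM (-2.65 ± 0.51), and GPR1, a chemerin receptor, 8.31, 8.95 and 29.3 against 99, 88.3 and 103 CPM (-2.64 ± 0.62). Their GC content was 38.0% to 41.8%. They were picked among genes whose treated groups did not overlap, so that absence of overlap is no separate result. After correction XIAP (interaction -1.51, adjusted p = 0.149) and GPR1 (-2.52, adjusted p = 0.051) were undecided. CLEC2D was then a kept difference (-2.70, interaction -2.03).

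Among lost differences, NTN4, a netrin of the matrix, went from 2.48 to 0.25 ± 0.12, with 16.3, 17.6 and 15.9 CPM in U251-ART and 14.2, 13.3 and 14.3 in U87-ART. SLIT3, an axon guidance ligand, went from 2.29 to 0.31 ± 0.14 (26.1, 27.7 and 23.6 against 19.4, 22.2 and 20.7 CPM). For these 2 genes the treated groups did not overlap although the difference was not called; after correction that of NTN4 was called (0.36, adjusted p = 0.0112). CARMIL2, an actin capping regulator, went from -3.46 to -0.02 ± 0.20, at 1.79, 1.45 and 1.73 against 1.46, 1.90 and 1.66 CPM, and a treated difference of -1.55 was called after correction.

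Among turned genes, TCAF2C measured 17.3, 19.7 and 16.3 CPM in U251-ART and 2.33, 3.06 and 1.73 in U87-ART (2.91 ± 0.20 against -2.15 in controls), but overlaps TCAF2 and is uncertain. AJM1 went from -1.71 to 2.42 ± 0.44, with 13.6, 16.3 and 13.6 against 0.874, 5.62 and 1.66 CPM, and was not called after correction (0.32, adjusted p = 0.163). RHOQ, a small GTPase of glucose transport, measured 51.6 and 19.7 CPM on average in U251 and U87 controls. In treated libraries it measured 11.2, 11.4 and 20.1 against 164, 77.3 and 90.0 CPM (-2.95 ± 0.36; -2.61 after correction). CREBRF, a negative regulator of the stress factor CREB3, measured 22.4, 21.8 and 24.2 against 75.6, 54.3 and 70.7 CPM (-1.56 ± 0.13 against 1.54 in controls). INTU, a ciliogenesis gene, measured 12.3, 5.55 and 14.1 against 21.3, 26.3 and 25.9 CPM (-1.20 ± 0.30 against 1.16).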

How the data were processed

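RNA from 12 libraries (3 for each of 4 groups) was analysed from the deposited gene table. Read cleaning by the authors used fastp, alignment HISAT2 2.1.0 against GRCh 38.91, quantification StringTie 1.3.3b and group tests edgeR 3.30.3, per the labels and the series text. The deposited values are counts per the file headers, and were whole numbers with a different total in each library; the step that made them and its strand setting are not given in the sources used here. The authors' FPKM values followed TMM normalization per the series text, and were tested on a log2 scale as an alternative. The authors' log2 fold changes, p-values and adjusted p-values of U87-ART over U251-ART are deposited in the same table.

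Counts of 58302 listed genes, 35237 with a count, were filtered with filterByExpr (minimum count 10, total 15), leaving 17150 genes, 13587 of them protein-coding. A model with 4 group means over all 12 libraries was fitted in edgeR 4.0.16 (R 4.3.3, quasi-likelihood, TMM; common coefficient of variation 0.183), with Benjamini-Hochberg adjustment over the tested genes of each comparison. SE is the absolute log2 difference over the square root of F. Bounds against groups with no count use 3 counts over the group, and intervals of ratios cover counting error. GC content and length came from the longest GENCODE transcript, for 99.6% of tested genes. DESeq2 1.42.0, limma 3.58.1, other scalings and filters, separate fits to treated and control libraries, a replicate block and each library left out were alternatives. Functions were tested on simulated data.

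The members and the gene lists were chosen with earlier results of these data known; 20 of 36 lists, and the markers of 5 other cell types, are described. Named genes were, without overlap of the groups and with at least 10 CPM, the 4 widest kept and appeared, and the 3 widest lost (treated 95% interval within -1 and 1) and turned protein-coding genes per direction. From each list came the most significant called member per direction and the largest called interaction, and 16 genes such as GFAP and VEGFA were named whatever their result, of which 1 is not reported here. Genes listed only as the members behind a count of a class were chosen after their values were seen, as were those marked so.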

Additional observations from a re-analysis of the deposited data

Results flagged for a closer look

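The line difference itself changed between control and treated libraries by the test of the interaction in edgeR's quasi-likelihood model. This held for 4132 genes whose difference lay further to the U251 side under artesunate and 4346 genes whose difference lay further to the U87 side. Each value below is the treated line difference minus the control line difference (log2), for genes that the naming rule gave. The values are without the GC and length correction unless stated. Genes with 3 counts or fewer in a group (OLIG2, ADAMTS5 and GREM1 among them) are left out, since their fitted change depends on the prior count. Markers of other cell types, except the fibroblast and mesenchymal list, are left out too, as are genes picked after their values were seen.

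Changes towards U251 of 3 or more were those of AC004922.1 (5.90), TCAF2C (5.05), PPFIA4 (4.50), CA9 (4.35), AMH (4.32), AJM1 (4.13), SLC16A3 (3.96), PFKFB4 (3.71), CHTF18 (3.5), CARMIL2 (3.44), VEGFA (3.43), EGLN3 (3.37), RASSF7 (3.32), CDT1 (3.22) and NDRG1 (3.08). Smaller changes towards U251, between 2 and 3, were those of BBC3 (2.97), BOP1 (2.79), NES (2.54), LAMA5 (2.51), MVD (2.47), MCM5 (2.44), COL16A1 (2.30), SOX9 (2.21), COL4A2 (2.10), PSMB10 (2.02) and MCM7 (2.00). Changes towards U251 below 2 were those of GPI (1.88), MT-CO3 (1.65), HOXB2 (1.54), CA12 (1.53), BAX (1.47), STC2 (1.43), ITGB4 (1.43), PDGFRB (1.39), CENPA (1.34), NOP56 (1.27), ALDOC (1.2), PPP1R15A (1.2), TAPBP (1.13), HMOX1 (1.07), MMP2 (0.55), MCM6 (0.45) and ABCC3 (0.43). After the GC and length correction the change of ABCC3 was called the other way (-0.33, adjusted p = 0.0127). Those of MMP2 (-0.31) and ITGB4 (-0.28) had the other sign without a call. Those of RASSF7, BBC3, COL16A1, PSMB10, HOXB2, PDGFRB, ALDOC, PPP1R15A (0.08), TAPBP (0.15) and HMOX1 (0.11) were not called.

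Among these, changes towards U87 were widest for SLC7A11 (-4.66), RHOQ (-4.34), CLDND1 (-3.18), GPR1 (-3.17) and CREBRF (-3.10). They were intermediate for CLEC2D (-2.88), CXCL8 (-2.50), INSIG1 (-2.43), INTU (-2.37), XIAP (-2.31), TXNRD1 (-2.29), TP53INP1 (-2.27), NTN4 (-2.22) and MT1F (-2.14). They were smaller for SLIT3 (-1.98), CYBRD1 (-1.69), PTGS2 (-1.22), AKR1C1 (-1.22), HMMR (-1.13), TTK (-0.84), WDR12 (-0.80) and ACO1 (-0.38). After the correction those of GPR1, XIAP, PTGS2, HMMR, TTK, WDR12 (-0.06) and ACO1 (-0.10) were not called.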

How the results depend on the processing

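The GC and length correction moved 3 counts by over 1.5 times, lost differences to 962, appeared to 1318 and turned to 667, and with a replicate block as well to 908, 1272 and 635; the cause was not tested. A fold of at least 2 left 3710 genes higher in U87-ART, 4309 kept and 187 turned. Leaving out each library gave 5944 to 6449 genes higher in U251-ART, 5826 to 6312 higher in U87-ART, 6762 to 7308 kept, 1343 to 1654 lost, 2358 to 2846 appeared and 1292 to 2161 turned. Deviations of same-numbered libraries correlated weakly (r across genes -0.0352 to 0.0576), and the same number was the best match in some cases only. With 3 libraries a group this cannot settle whether the numbers pair the samples. The replicate block gave 6194 and 6061 genes higher in each treated line, 6974 kept, 1504 lost, 2623 appeared and 1612 turned. Separate fits to treated and control libraries gave 5521 genes higher in U251-ART and 5426 higher in U87-ART. With the interaction from the fit to all libraries, they gave 6566 kept, 1704 lost, 2113 appeared and 1645 turned. GPX4 had the opposite sign under the correction (-0.476, and -0.469 with the block). Under the same 2 settings AJM1 (0.321 and 0.34), BBC3 (0.224 and 0.255) and FTH1 (-0.195 and -0.194) were not called. Under the correction alone the lost NTN4 (0.36), NDRG1 (-0.41), PPFIA4 (-0.90) and CARMIL2 (-1.55) had a called treated difference. The correction also gave a called interaction to kept genes that had none without it. Among them were GFAP (-1.81), HLA-B (-1.32), COL6A3 (-0.515), PCNA (0.405), TFRC (0.501), MT-CO1 (0.538), FN1 (0.618), CDH2 (0.626), BIRC3 (0.666) and SNAP25 (1.42). Of the named genes' values under alternatives (the interaction for lost genes, the treated difference for others), 2243 kept their direction and side of the threshold and 19 kept only their direction. At these depths a gene with no count is known only to lie under the floor of 3 counts over its group.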
